A study of Rattus norvegicus with 6 samples.

Results

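Transcripts that mark macrophages were measured in cultures of neonatal rat ventricular cardiomyocytes (NRVCs), primary heart muscle cells prepared from newborn rats. The members were 10 genes chosen by name, namely *Itgam*, *Itgb2*, *Csf1r*, *Ptprc*, *Cd68*, *Lyz2*, *Lgals3*, *Cd163*, *Mrc1* and *Cd74*, of the 16569 genes that the array probes could be matched to. Where several probes matched a gene, the one brightest on average across the 6 arrays stood for it, a choice that did not use the treatment. Of the 10 genes, 6 had a probe bright enough to be tested, against 10386 of the 16569 genes in all.

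The culture conditions compared, with 3 arrays each, were control and C3a. Both used ventricular cells pooled from the hearts of 8 to 10 Sprague-Dawley rats that were 1 to 2 days old. Control cells stayed in control medium, and C3a cells received recombinant C3a, the small fragment that complement C3 releases on cleavage, at 0.5 µg/ml for 12 h. Per the labels the medium was serum-free, while the methods describe a short starvation in low serum before C3a, and which applied to these cultures is not settled. The dispersed cells were preplated before culture, a step that lets fast-attaching cells settle out, and no sort for or against leukocytes is described. Whether the replicates of a condition came from separate cell preparations is not stated, so that p-values measure the spread between these 3 samples, which may be technical.

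Macrophages are phagocytes that live in most tissues, the heart included. They carry the receptor for colony stimulating factor 1 (CSF1), clear dying cells and opsonised particles through integrin, Fc and scavenger receptors, and present antigen on major histocompatibility complex (MHC) class II. In rat tissue they are classically recognised by CD68 (the ED1 antigen) and CD163 (the ED2 antigen), and they also respond to C3a through its receptor, C3aR. In a bulk RNA sample, fewer macrophages and less RNA per macrophage cannot be told apart.

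All 6 arrays shared 1 slide and 1 scan, with the control arrays in one column of the slide and the C3a arrays in the other, so that position and treatment cannot be told apart. No spot was saturated. The scanner software flags a spot as well above background from the background spread on its own array, and the share of probes that met this lay between 53.7% and 57.3% on 5 arrays and was 38.6% on control replicate 1. Among probes that met it, the lowest signal was 54.4 intensity units on control replicate 1 and between 7.36 and 9.06 on the other arrays. Of the 23438 probes kept for testing, 5766 were well above background on every array but that one. As a check of the labelled cell type, 13 of 13 cardiomyocyte marker genes with a probe, *Myh6*, *Tnnt2* and *Actc1* among them, were well above background on all 6 arrays.

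The members differed in detection. *Cd68*, *Lyz2* and *Lgals3* were well above background on all 6 arrays. *Itgam*, *Itgb2* and *Csf1r* were so on 5 arrays, control replicate 1 being the exception. *Ptprc* was so on 1 array, and *Cd163*, *Mrc1* and *Cd74* on none. Thus 3 of 10 members were measured on every array and 3 of 10 on none, against 51.6% and 29.9% of all genes on the array. A probe that stays dark can reflect a scarce transcript or a probe that binds poorly, and which of these applied was not tested.

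**Figure D1:**
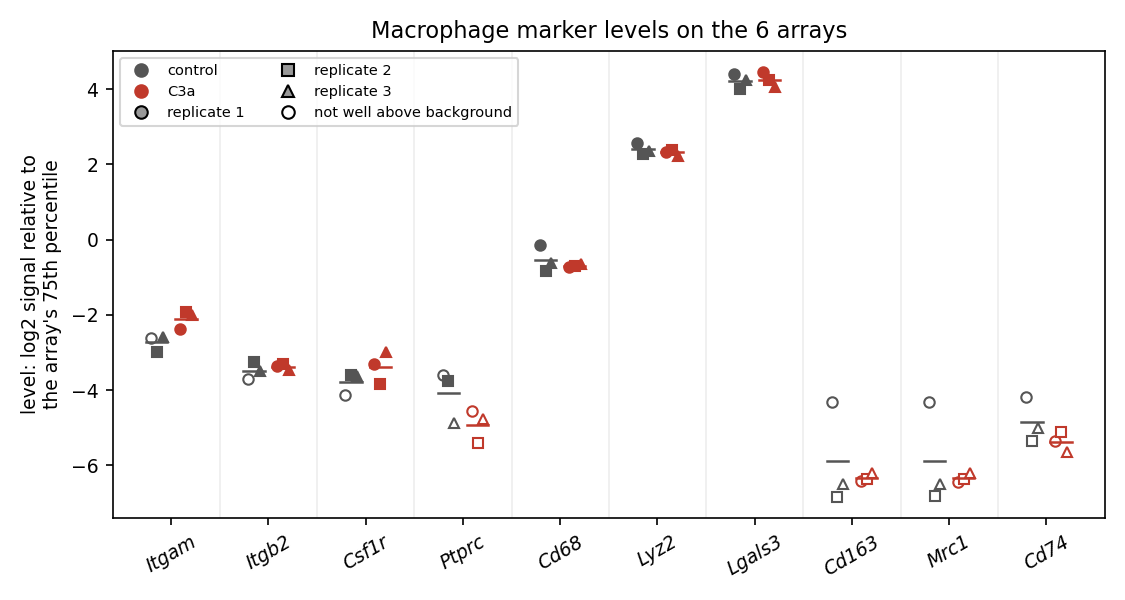
Level of each member on each array, as log2 of the signal divided by the array's own 75th percentile; grey is control, red is C3a, symbols give the replicate number, horizontal bars the mean of 3 arrays, and open symbols arrays where the probe was not well above background. Levels of different genes come from different probes and are not comparable with each other. *Itgam* is the gene for which the 3 C3a arrays lie above the 3 control arrays.

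The promoters below show members of different detection, namely *Itgam*, read on 5 arrays, *Cd68*, read on 6, and *Mrc1*, read on none. The sequences are from RefSeq (build GRCr8) and run from 250 bases before to 50 bases after the annotated start, 5′ to 3′ on the strand of the gene. Capitals mark the letters GAGGAA or their reverse complement TTCCTC, the core of the PU box bound by PU.1, the transcription factor encoded by *Spi1* that directs myeloid gene expression. The *Itgam* promoter lies at chr1:192089342-192089641 on the plus strand, that of *Cd68* at chr10:54882392-54882691 on the minus strand and that of *Mrc1* at chr17:82157475-82157774 on the plus strand.
Itgam: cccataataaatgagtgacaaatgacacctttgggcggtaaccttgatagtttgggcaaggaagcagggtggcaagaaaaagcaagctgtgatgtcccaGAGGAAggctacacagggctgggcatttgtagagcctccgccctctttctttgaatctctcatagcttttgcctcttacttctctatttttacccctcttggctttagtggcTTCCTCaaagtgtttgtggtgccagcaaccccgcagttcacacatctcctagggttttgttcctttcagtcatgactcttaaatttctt
Cd68: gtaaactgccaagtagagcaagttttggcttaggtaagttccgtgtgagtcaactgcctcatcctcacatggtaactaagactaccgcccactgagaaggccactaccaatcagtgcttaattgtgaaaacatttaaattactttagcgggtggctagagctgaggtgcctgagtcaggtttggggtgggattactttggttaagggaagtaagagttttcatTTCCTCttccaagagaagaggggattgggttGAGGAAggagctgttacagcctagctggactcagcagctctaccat
Mrc1: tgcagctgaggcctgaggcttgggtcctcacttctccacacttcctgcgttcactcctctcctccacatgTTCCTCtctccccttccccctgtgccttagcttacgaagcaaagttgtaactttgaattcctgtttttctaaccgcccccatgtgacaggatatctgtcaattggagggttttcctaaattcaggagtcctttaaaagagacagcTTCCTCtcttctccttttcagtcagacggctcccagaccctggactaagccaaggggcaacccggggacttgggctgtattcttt
A promoter was available for 8 of the 10 members, *Itgb2* and *Lgals3* being without one. These letters stand in 7 of the 8, the exception being *Cd163*, and in 27.6% of all 33469 promoters of the same length. *Mrc1* carries 2 matches and was not detected, so that among the 8 a match did not separate the detected from the undetected members. A match is a run of letters and was not tested for binding.

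*Cd68*, *Lyz2* and *Lgals3* encode a lysosomal membrane glycoprotein, the lysozyme that digests bacterial cell walls, and galectin-3, a carbohydrate-binding lectin that many cell types besides macrophages can make. They were the members whose groups could be compared on arrays that all measured them. Through its brightest probe, none of the 3 differed between C3a and control by more than the spread between replicates.

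The *Cd68* signal was 246, 206 and 177 intensity units on control replicates 1, 2 and 3, and 139, 177 and 131 on the C3a arrays. The log2 of the signal divided by the array's own 75th percentile, here called the level, was -0.15, -0.84 and -0.61 in the controls and -0.73, -0.70 and -0.66 with C3a. Control replicate 1 was the highest array, and the C3a arrays fell within the range of the controls. The mean level was -0.53 ± 0.35 (SD, n = 3) in controls and -0.70 ± 0.035 (SD, n = 3) with C3a, a difference of -0.16 on the log2 scale (95% interval -0.57 to 0.25, adjusted p = 0.788 from limma). Without control replicate 1 the difference was 0.028, so that its sign rested on that array.

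*Lyz2* gave 1618, 1787 and 1387 intensity units in controls 1 to 3 and 1167, 1515 and 961 with C3a. The levels were 2.57, 2.28 and 2.36 in the controls and 2.34, 2.40 and 2.21 with C3a, with overlapping groups. The difference was -0.088, or 0.941-fold, with a 95% interval from 0.782-fold to 1.13-fold (adjusted p = 0.819 from limma). Leaving out control replicate 1 brought it to -0.0061. The probe was printed in 10 spots, which within an array had a median SD of 0.075 on the log2 scale, below the SD between control arrays of 0.15. *Lyz2* had 2 further probes on the array, with differences of -0.15 and -0.42. For the dimmer of these the 3 C3a levels, -1.35, -1.02 and -1.46, lay below the 3 control levels, -0.86, -0.71 and -1.01 (unadjusted p = 0.0233, adjusted p = 0.742 from limma), as they did for 4.45% of all kept probes, while 5.84% had an unadjusted p under 0.05. The 3 probes thus shared a sign and differed in size, and the mean difference over them was -0.22. The gene table also lists *Lyc2*, a neighbouring lysozyme gene for which *Lyz2* is a synonym, and how the copies share signal was not tested.

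*Lgals3* signals were 5744, 5850 and 5146 intensity units in controls and 5061, 5445 and 3437 with C3a. As levels they were 4.40, 3.99 and 4.26 in controls and 4.46, 4.24 and 4.05 with C3a, so that each group spanned most of the range of the other. The difference was 0.036, or 1.03-fold (95% interval 0.802-fold to 1.31-fold, adjusted p = 0.950 from limma). Leaving out control replicate 1 brought it to 0.13. A second *Lgals3* probe gave 0.023, close to the first. The sign of this difference was negative after quantile normalization and in both settings without scaling to a percentile or quantiles of the probes.

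*Itgam* and *Itgb2* encode the alpha chain (CD11b) and beta chain (CD18) of complement receptor 3, the integrin through which phagocytes bind C3 fragments fixed on a surface. *Csf1r* encodes the receptor for CSF1 and interleukin-34, on which macrophage survival depends. These genes entered the test through the C3a arrays, on all 3 of which they were well above background, while 2 of 3 control arrays measured them. Their number and median among tested members therefore carry no weight.

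*Itgam* was the member with the largest difference. Its signal was 44.2, 46.4 and 45.0 intensity units in controls 1 to 3, the first of these not well above background, and 44.0, 76.3 and 51.5 with C3a. As levels these were -2.63, -2.99 and -2.58 in controls and -2.39, -1.92 and -2.01 with C3a, and all 3 C3a arrays lay above all 3 controls. On the intensity scale C3a replicate 1 lay below the controls. It lay above them once each array was divided by its 75th percentile, which was between 269 and 367 intensity units in controls and between 207 and 288 with C3a. The mean level was -2.73 ± 0.22 (SD, n = 3) in controls and -2.10 ± 0.25 (SD, n = 3) with C3a. The difference was 0.63 (standard error 0.17), or 1.54-fold with a 95% interval from 1.18-fold to 2.03-fold. The unadjusted p from limma was 0.00699, rank 178 of the 23438 kept probes, and the adjusted p was 0.742, so that *Itgam* did not pass the threshold of 0.05. An exact permutation test of the 6 arrays gave a two-sided p of 0.1, the smallest that 3 against 3 allow. Groups without overlap were found for 13% of all genes tested, with C3a above for 8.16% and below for 4.84%. Without control replicate 1 the difference was 0.68, and without scaling between arrays it was 0.30. A second *Itgam* probe stayed below that mark throughout, so that the difference rests on 1 probe with 1 spot.

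*Itgb2*, which encodes the partner chain of *Itgam*, gave 20.8, 38.8 and 23.9 intensity units in controls and 22.5, 28.8 and 18.6 with C3a. The levels were -3.71, -3.24 and -3.50 in controls and -3.35, -3.32 and -3.48 with C3a, which overlap. The difference was 0.099 (95% interval -0.22 to 0.42, adjusted p = 0.831 from limma). Leaving out control replicate 1 turned it to -0.014. The *Itgam* and *Itgb2* differences were not tested against each other.

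*Csf1r* signals were 15.4, 30.3 and 21.9 intensity units in controls and 23.3, 20.3 and 26.1 with C3a. The levels were -4.14, -3.60 and -3.62 in controls and -3.31, -3.83 and -2.99 with C3a. C3a replicates 1 and 3 were the highest arrays, and C3a replicate 2 lay below 2 of the controls. The difference was 0.41, or 1.33-fold (95% interval 0.897-fold to 1.98-fold, adjusted p = 0.742 from limma). On control replicate 1 the probe gave 15.4 intensity units, where the median negative control spot, a spot with no target in the sample, gave 14.4. The difference was 0.23 without that array, and between 0.22 and 0.64 over all arrays left out in turn. It was 0.90 with quantile normalization and -0.037 with spike-in scaling.

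**Figure D2:**
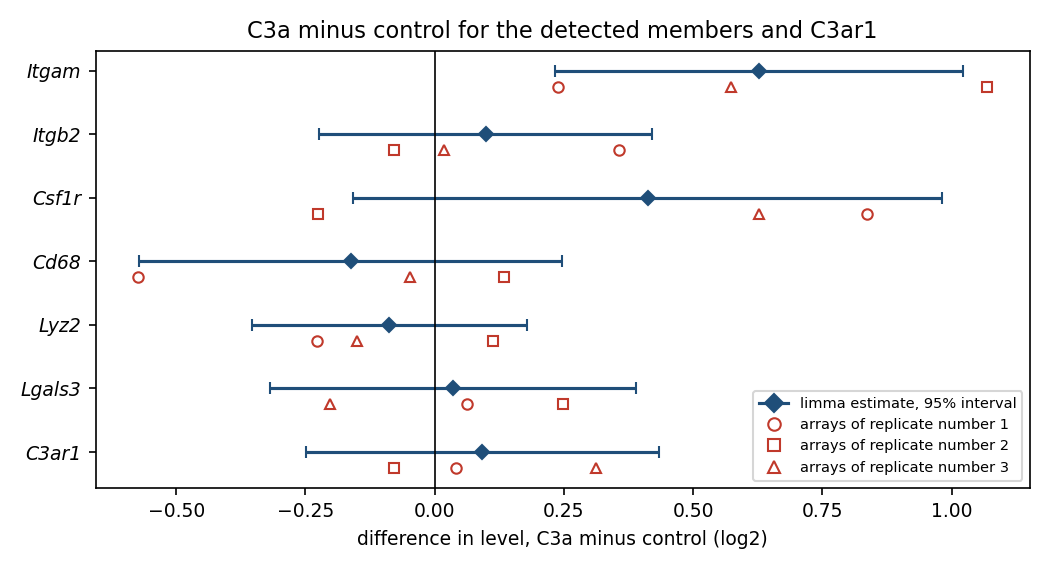
Difference in level, C3a minus control, on the log2 scale for the 6 tested members and *C3ar1*; diamonds are limma estimates with 95% intervals, and open symbols the difference between the arrays of the same replicate number. The *Itgam* interval, 0.23 to 1.02, is the one that does not cross 0, before any adjustment over the probes tested.

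*Ptprc* encodes CD45, the phosphatase on the surface of all leukocytes. It was well above background on control replicate 2 alone, at 26.9 intensity units. On control replicates 1 and 3 it gave 22.3 and 9.12, and on the C3a arrays 9.80, 6.74 and 7.53. With 1 array measured, no difference between the conditions is given.

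*Cd163*, the haptoglobin-haemoglobin scavenger receptor, and *Mrc1*, the mannose receptor CD206, mark resident and alternatively activated macrophages. Their signals lay between 2.65 and 3.47 intensity units on every array but control replicate 1, where both gave 13.6. The median negative control spot, a spot with no target in the sample, gave 14.4 there and between 2.80 and 3.61 on the other arrays. Both genes lay between -0.084 and -0.051 on the log2 scale from the median negative control spot on all 6 arrays. *Cd74*, the invariant chain that guides MHC class II through the cell, gave 15.1, 8.92 and 8.38 intensity units in controls and 5.62, 8.28 and 4.11 with C3a. This was above the median negative control spot by at most 1.42 on the log2 scale, and its 9 spots within an array had a median SD of 0.50. No fold is given for these genes, since none was well above background on any array of either condition.

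**Figure D3:**
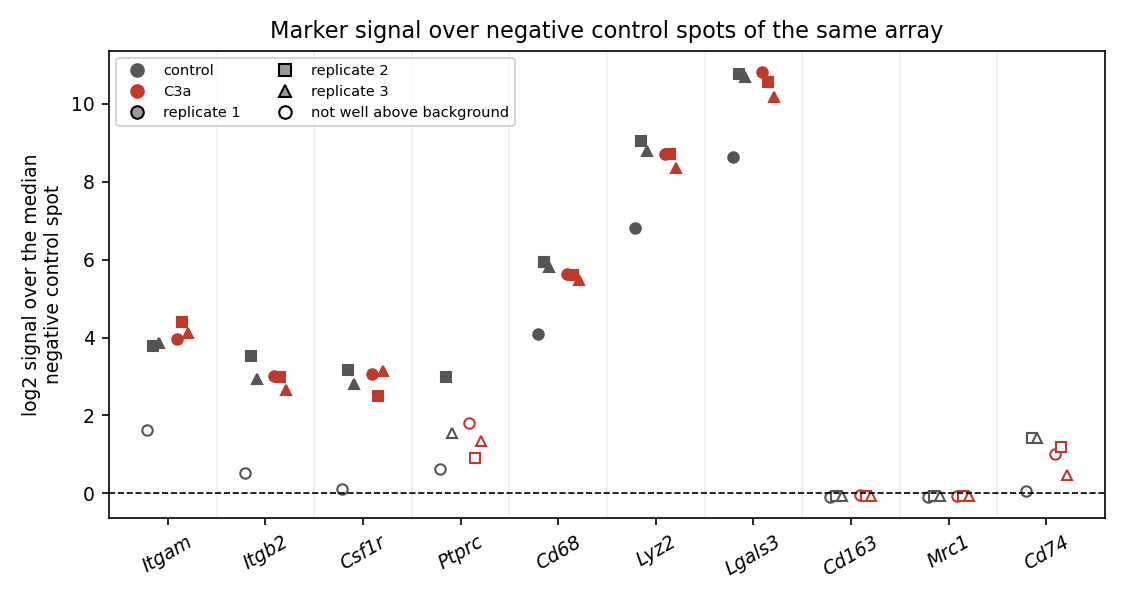
Signal of each member over the median negative control spot of the same array, on the log2 scale, with symbols as in the plot of levels. *Cd163* and *Mrc1* lie just below the dashed line at 0 on all 6 arrays, and control replicate 1, whose median negative control spot gave 14.4 intensity units, lies below the other arrays for the detected genes.

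The tested members did not all differ in the same direction. Between arrays of the same replicate number, 4 of 6 tested members were higher with C3a for number 1, 4 of 6 for number 2 and 3 of 6 for number 3, against 59.3%, 63.3% and 44.7% of all genes tested. Only *Itgam*, of the 6, lay above 0 in all 3 pairs, as 23.6% of all genes did. For number 1 the control array did not measure *Itgam*, *Itgb2* and *Csf1r*, and of the 3 genes it measured 1 lay above 0, *Lgals3* at 0.062, while *Cd68* lay at -0.57. In pair 2 *Itgam* was higher by 1.07 while *Csf1r* lay at -0.23. In pair 3 *Csf1r* was higher by 0.63 while *Lgals3* lay at -0.20.

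By array, the lysosome and lectin genes and the 3 receptor genes were each set against their own mean over 6 arrays. On control replicates 1 and 3, *Cd68*, *Lyz2* and *Lgals3* were all above it, and *Itgam*, *Itgb2* and *Csf1r* were all below it. On control replicate 2, 0 of the former and 1 of the latter were above. On C3a replicates 1, 2 and 3, 1, 2 and 0 of the former and 3, 2 and 2 of the latter were above. Of all genes tested, 61.8%, 37.3% and 47.5% were above their own mean on control replicates 1, 2 and 3. On C3a replicates 1, 2 and 3 it was 66.2%, 58.4% and 43.7%. On control replicate 3, *Cd68*, *Lyz2* and *Lgals3* lay above their mean by only 0.0048, 0.0028 and 0.023. On control replicate 1 the receptor genes were not well above background, and the part of this in their pattern was not tested. The distance of a gene from the mean centred profile of the 6 tested members was taken as the root mean square difference over the 6 arrays. It was between 0.15 and 0.33 for the members themselves and 0.14 at the median of all 10386 genes tested. The nearest genes were *Cox16*, *Ndufa10l1* and *Eif2ak1*, at 0.014, 0.016 and 0.017, each with a difference between conditions of 0.14 or 0.15. The profile includes *Itgam*, *Itgb2* and *Csf1r*, which entered the test through the C3a arrays, so that the direction of these differences carries no weight. Genes with a flat profile lie near the mean of any mixed set, and with 6 arrays and this many genes close matches are frequent.

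As a description, the median difference of the 6 tested members was 0.067 with 4 of 6 above 0. For all genes tested these were 0.036 and 60.7%. Without control replicate 1 the median was 0.077 for the members and 0.055 for all genes tested. For the 3 genes measured on all arrays the median was -0.088 with 1 of 3 above 0. At an adjusted p under 0.05 from limma, 0 members were called, as were 0% of all genes tested. At an unadjusted p under 0.05 limma called 1 of 6 members, *Itgam*, against 5.35% of all genes tested, of which 2.93% were higher and 2.43% lower with C3a. The methods' t-test, the equivalent for a pair of groups of the variance analysis they name, called *Itgam* alone at the unadjusted threshold, against 4.74% of kept probes, and 0 members after the Benjamini-Hochberg adjustment added here. *Itgam*, *Itgb2* and *Csf1r* entered the test through the C3a arrays, so that the counts and median over the 6 members carry no weight. With probes required on all 6 arrays, limma called 0 members at an unadjusted p under 0.05.

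**Figure D4:**
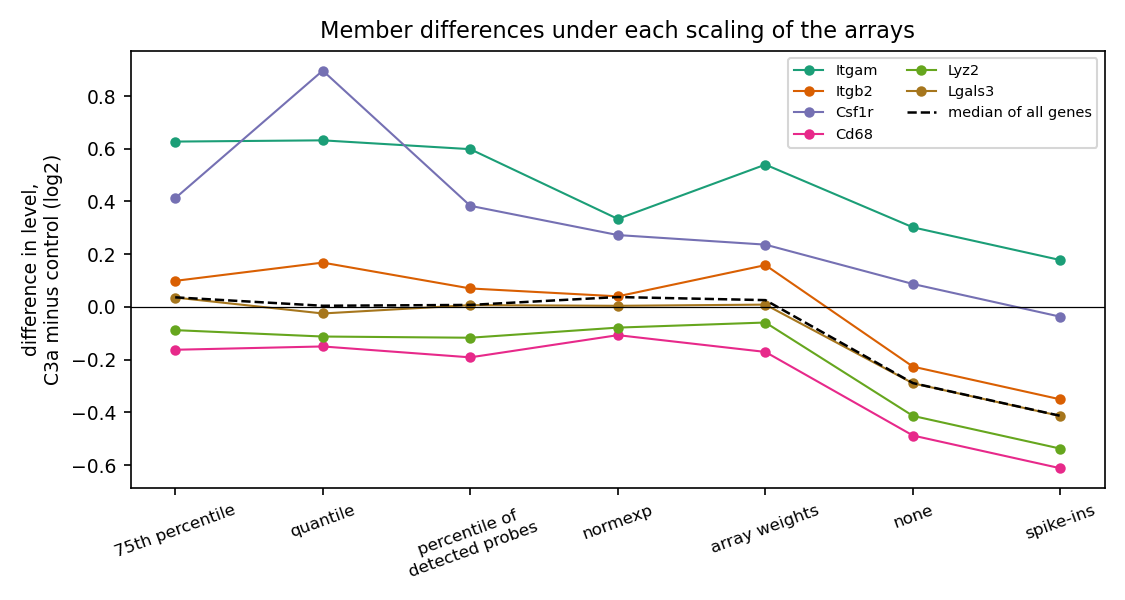
Difference in level, C3a minus control, on the log2 scale for the 6 tested members under each scaling of the arrays, with the median of all genes tested as a dashed line. *Itgam* is above 0 in each of the 7 settings plotted, at 0.18 with spike-in scaling, where the median of all genes is -0.41.

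Other macrophage genes were examined in lists written from general knowledge. Of 14 genes for complement and Fc receptors and C1q with a probe, 4 were well above background on all 6 arrays and 6 on none. The former were *C3ar1*, *Fcgr2a* and the signalling adaptors *Tyrobp* and *Fcer1g*. *C1qb*, which encodes a chain of the C1q recognition molecule, was measured on 5 arrays and *C1qa* and *C1qc*, the other chains, on none. Of 12 resident macrophage genes, *Folr2*, *Cx3cr1*, *Aif1* and *Gas6* were measured on all 6 arrays, and 7 genes, *Lyve1*, *Siglec1* and *Mertk* among them, on none. Of 12 pan-leukocyte genes, 4 were measured on all arrays, including *Cd53* and *Cd48*, and 5 on none. Of 11 monocyte and granulocyte genes, 9 were measured on none, including *Ccr2*, *S100a8* and *S100a9*. Both macrophage and leukocyte lists thus held genes that were measured beside genes that were not.

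Of the 56 tested genes in these and the remaining macrophage lists, limma called 0 in either direction at an adjusted p under 0.05. At an unadjusted p under 0.05 it called 1 higher and 2 lower, against 2.93% and 2.43% of all genes tested, and the methods' t-test called 2 before adjustment and 0 after, against 4.74% of kept probes before adjustment. These counts are near the share over all genes. The *C3ar1* level was -1.88, -2.13 and -2.24 in controls and -1.83, -2.21 and -1.93 with C3a, a difference of 0.092 (adjusted p = 0.851) that was below 0 without scaling between arrays and with spike-in scaling. *Spi1*, which encodes PU.1, had a difference of 0.51 (adjusted p = 0.742), was measured on 2 of 3 control arrays and gave between 0.27 without control replicate 1 and 0.86 without control replicate 3. Among all 7 tested genes for myeloid transcription factors, 6 lay above 0 with a median of 0.13, where 60.7% of all genes tested lay above 0. Of the 7, *Spi1*, *Irf5* and *Maf* were measured on 2 of 3 control arrays and entered the test through the C3a arrays. The count and median of this list therefore carry no weight. *Il34*, which encodes a ligand of CSF1R, had a difference of 0.33 (unadjusted p = 0.0390, adjusted p = 0.742). It was measured on 2 of 3 control arrays and thus entered the test through the C3a arrays, where it was higher, so that its count carries no weight, and it gave 0.21 without C3a replicate 2. *Csf1*, which encodes the other ligand, had a difference of 0.017. The MHC class II gene *RT1-Db1* differed by 0.28 and 2 of 4 tested genes of its list lay above 0. Of the 4, *RT1-Bb* and *RT1-DMa* entered the test through the C3a arrays, so that this count carries no weight either.

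Lysosomal genes were measured in full, with 15 of 15 on all 6 arrays. Their median difference was -0.038 with 7 of 15 above 0, and 0.012 without control replicate 1, where that of all genes tested was 0.055. The gene with the smallest p was *Lgmn*, which encodes the lysosomal protease legumain, at -0.45 (unadjusted p = 0.0331, adjusted p = 0.742), which became -0.30 without control replicate 2. Among 16 genes of macrophage activation, 8, including *Nos2*, *Tnf*, *Il1b* and *Il6*, were measured on no array. *Hmox1*, which encodes the haem-degrading enzyme haem oxygenase 1, had the smallest p of this list. It differed by -0.47 (unadjusted p = 0.00887, adjusted p = 0.742 from limma), with all 3 C3a arrays below all 3 controls. The C3a arrays lay below the controls in this way for 4.84% of all genes tested, *Spp1* of the same list and *Lgmn* among them. The median of the 7 tested genes of this list was -0.055. Of the 7, *Ccl3* was measured on 2 of 3 control arrays and entered the test through the C3a arrays, so that this median carries no weight.

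**Figure D5:**
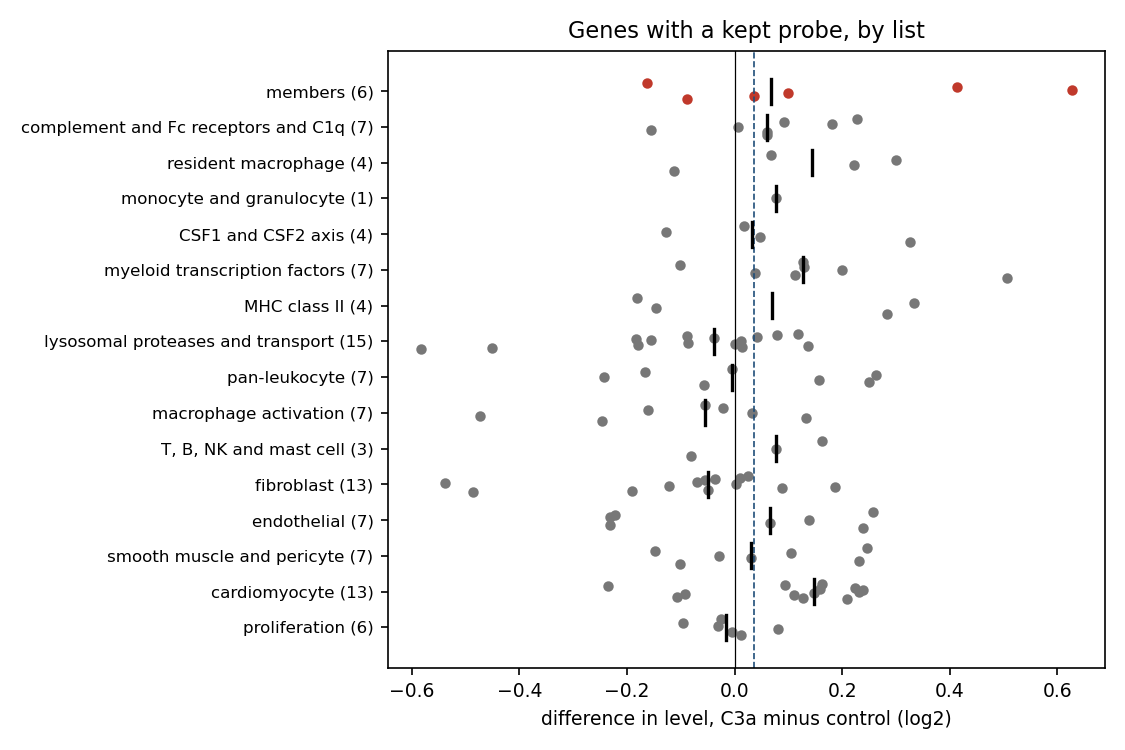
Difference in level, C3a minus control, on the log2 scale for each gene with a kept probe, by list (number of genes in brackets); red points are the members, black bars list medians, and the dashed line the median of all genes tested. List medians lie between -0.055 and 0.15. Medians of lists with genes that entered the test through the C3a arrays carry no weight.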

How the data were processed

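RNA from 3 control and 3 C3a cultures of NRVCs was hybridised to 1-colour Agilent SurePrint G3 Rat arrays. The authors deposited the intensity of each spot from Feature Extraction 11.5.1.1, background-subtracted and detrended but not normalized between arrays. Their deposited log2 table of 36638 probes differed by at most 0.0062 at the median from log2 intensity scaled to the 75th percentile here, so that its scale is known and no gene centring was found. Samples were grouped by condition and number in their titles.

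Control spots and spots with a non-uniformity or population outlier flag were left out, and log2 signals of one probe were averaged (45572 of 45598 probes). A probe was well above background where at least 50% of its spots were. The 23438 probes meeting this on all 3 arrays of a condition were kept. Accessions of 21102 probes (46.3%) matched the GRCr8 gene table. limma 3.58.1 in R 4.3.3 (lmFit, eBayes, two-sided) compared the conditions with Benjamini-Hochberg adjustment over kept probes, shown as a fold or log2 difference with a 95% interval. The fit was tested on simulated data first. Arrays of the same replicate number deviated together (correlation 0.28, 0.32 and 0.31 over kept probes, -0.26 to -0.093 for other pairs). They also shared a row of the slide, so that replicate number and row cannot be told apart. Differences within a replicate number are given as pairs. The main fit held no term for replicate number, and the replicate block, an alternative, added it. Precision is limited by having 3 arrays per condition.

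The members and lists were chosen with earlier results of these data known, and no test over a list was made. The rule named all members, *C3ar1*, up to 4 genes of each list by p, and the 3 genes nearest to the members' mean profile. Genes named for detection or background in the text were chosen after their values were seen. Alternatives were quantile normalization, no normalization, the percentile over detected probes, scaling to 7 spike-in probes, normexp (offset 50, on the median spot signal), the authors' log2 table, array weights, the replicate block, a variance trend, looser and stricter filters on dim signals, the methods' t-test (they name an analysis of variance, which for a pair of groups is the same test; the Benjamini-Hochberg adjustment was added here), the mean over a gene's kept probes, and each array left out. Since 1 slide in 1 scan held every array, neither could enter as a block.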

Additional observations from a re-analysis of the deposited data

How the results depend on the processing

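No member passed an adjusted p under 0.05 in any alternative; over all of them adjusted p lay between 0.261 and 0.997 for *Itgam*. *Itgam* kept its direction in all 19 alternatives (0.18 to 0.77, and 0.50 to 0.77 with each array left out), *Lyz2* in all 20. The median difference of the tested members, 0.067, came to -0.26 on unscaled arrays and -0.38 on spike-in scaled ones, where that of all genes was -0.29 and -0.41, and between 0.0077 and 0.14 with each array left out. The count of 0 probes higher and 0 lower became 4 lower without normalization, 1 higher and 15 lower with spike-in scaling, and 754 higher and 357 lower in the methods' t-test before adjustment. The 1111 probes of the methods' t-test were 4.74% of kept probes, where limma had 5.84% at an unadjusted p under 0.05. After adjustment the methods' t-test called 0. The cause of the counts without normalization and with spike-in scaling was not tested. At an unadjusted p under 0.05 the 1 member became 0 without normalization, with spike-in scaling and with probes required on all 6 arrays, where *Itgam* is not tested, and 2 without C3a replicate 2; the 1368 probes became between 710 and 3198.

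Without normalization the difference was -0.23 for *Itgb2*, -0.29 for *Lgals3*, -0.23 for *C3ar1*, -0.098 for *C1qb*, -0.10 for *Folr2*, -0.25 for *Plac8*, -0.043 for *RT1-Db1*, -0.16 for *Cd3d*, -0.079 for *Acta2*, -0.087 for *Myl2* and -0.25 for *Mcm2*. With spike-in scaling it was -0.35 for *Itgb2*, -0.037 for *Csf1r*, -0.41 for *Lgals3*, -0.36 for *C3ar1*, -0.22 for *C1qb*, -0.23 for *Folr2*, -0.37 for *Plac8*, -0.12 for *Il34*, -0.17 for *RT1-Db1*, -0.29 for *Cd3d*, -0.20 for *Acta2*, -0.21 for *Myl2* and -0.37 for *Mcm2*. Quantile normalization gave -0.025 for *Lgals3*. These were above 0 with the 75th percentile. Leaving out each array gave -0.014 to 0.22 for *Itgb2*, -0.31 to 0.028 for *Cd68*, -0.19 to 0.29 for *Plac8* and -0.075 to 0.13 for *Lgals3*. With the replicate block the *Itgam* difference of 0.63 had an unadjusted p of 0.0120 and an adjusted p of 0.261 from limma. The dimmest of the 3 *Lyz2* probes, at -0.42, had an unadjusted p of 0.00481 and an adjusted p of 0.220 from the same limma fit. In that fit 3198 probes had an unadjusted p under 0.05, and no gene changed sides at an adjusted p under 0.05. At an unadjusted p under 0.05, *Il34* was lost with the block, and *C1qb*, *RT1-Db1* and *Acta2* were gained. *C1qb* was measured on 2 of 3 control arrays and entered the test through the C3a arrays, where it was higher. Its gain therefore carries no weight. The higher background of control replicate 1 limits what can be said of dim members.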

Other observations

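Markers of other cell types were measured on the same arrays. Of 13 fibroblast genes with a probe, 10 were well above background on all 6 arrays, and of 10 endothelial genes 7 were, *Pecam1*, *Vwf* and *Kdr* among them. Of 7 genes for smooth muscle and pericytes, 5 were, *Acta2* and *Myh11* included. Of 10 genes for T, B, NK and mast cells, *Cd3d*, *Nkg7* and *Kit* were, while 6 were measured on no array, including *Cd3e* and *Cd8a*. With C3a, limma called 0 of the 49 tested genes of these and the cardiomyocyte and proliferation lists, and the methods' t-test 0 before or after adjustment. At an unadjusted p under 0.05 limma called 1 lower, where 2.43% of all genes tested were lower. The median difference was -0.050 for 13 fibroblast genes, 0.065 for 7 endothelial genes, 0.030 for 7 smooth muscle and pericyte genes, 0.15 for 13 cardiomyocyte genes and -0.015 for 6 genes of proliferation. Without control replicate 1 these were 0.020, 0.12, 0.030, 0.22 and 0.014, where the median of all genes tested was 0.055. *Lum*, *Tcf21* and *Thy1* of the fibroblast list and *Cnn1* and *Rgs5* of the smooth muscle list were measured on 2 of 3 control arrays. They entered the test through the C3a arrays, so that the fibroblast and smooth muscle medians carry no weight. *Lum*, which encodes the matrix proteoglycan lumican and was measured on 2 of 3 control arrays, had a difference of -0.54 (unadjusted p = 0.0369, adjusted p = 0.742 from limma). The other genes with the smallest p in their lists were *Tek*, an endothelial receptor for angiopoietins, at -0.23, *Acta2*, smooth muscle actin, at 0.25, *Myl2*, a ventricular myosin light chain, at 0.24, and *Mcm2*, a replication helicase subunit, at 0.080. In the leukocyte lists they were *Cd53*, a leukocyte tetraspanin, at -0.24, *C1qb* at 0.23, *Folr2*, a folate receptor, at 0.22, *Cd3d*, a T cell receptor subunit, at 0.16, and *Plac8* at 0.076. Of these, *C1qb* was measured on 2 of 3 control arrays and entered the test through the C3a arrays, so that its place carries no weight. Without control replicate 2 the differences were 0.11 for *Acta2*, 0.11 for *Myl2*, 0.021 for *Cd3d* and 0.14 for *Folr2*, without C3a replicate 3 it was -0.14 for *Tek*, and without C3a replicate 1 it was 0.029 for *Mcm2*. With all arrays, their adjusted p from limma lay between 0.742 and 0.928.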
